A study of Mus musculus with 12 samples.

Results

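The proteasome genes are the protein-coding genes of the deposited liver table whose symbols begin with Psma, Psmb, Psmc, Psmd, Psme, Psmf or Psmg followed by a digit. The rule uses names and no measured value, and it found 50 of the 24537 genes listed, 20712 of which are protein-coding. By role they are 8 alpha and 8 beta subunits of the core, 5 genes of the immunoproteasome, 9 genes of the base and 8 of the lid of the regulatory cap, 4 genes of other activators and of an inhibitor, and 7 assembly factors. The remaining gene, Psmc3ip, shares only the start of its symbol with them, since it encodes a factor of meiotic recombination.

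Liver RNA-Seq came from 12 male C57Bl/6J mice in 4 groups of 3, 6 weeks old at the start, housed individually and of the same genotype. Con mice were fed ad libitum, and CR (calorie restriction) mice received 30% fewer calories, given once a day as a fortified version of the Con diet. The intervention had lasted 25 days in 3 Con mice (Con7 to Con9) and 3 CR mice (CR7 to CR9), and 30 days in the others (Con10 to Con12 and CR10 to CR12). Per the study's methods, mice were labeled with heavy water before the livers were taken. Amount of food, composition of the diet and timing of meals cannot be told apart.

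The proteasome takes apart proteins that carry ubiquitin. Its core is a barrel of stacked rings, in which outer alpha rings guard the entrance and inner beta rings hold the proteolytic sites. A regulatory cap binds the end of the barrel: its base carries ATPases that unfold the substrate, and its lid removes ubiquitin. Interferon induces replacement beta subunits, which form the immunoproteasome and change the peptides offered on MHC class I molecules. The liver synthesizes most plasma proteins, and hepatocytes express proteasome genes throughout.

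Expression is given as FPKM, the reads on the exons of a gene scaled to exon length and to the reads of the library. Libraries held 15748726 to 23345545 reads, as read off the smallest steps between FPKM values, and 78.1% to 84.3% of them lay on exons. Alb, the hepatocyte marker that encodes albumin, stood at 25401 to 51723 FPKM, while the 8 leukocyte markers stayed below the filter of 1 FPKM in at least 3 libraries. That filter left 10593 genes, among them 47 of the 50 proteasome genes. In bulk liver, fewer cells of a type and less RNA per cell cannot be told apart.

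Levels per length differed by role. The 7 beta subunits past the filter had a median of 89.3 FPKM over all 12 mice, from 27.6 for Psmb5 to 124 for Psmb4. The 7 alpha subunits had a median of 47.6 FPKM but spread more widely, from 5.25 for Psma3 to 97.8 for Psma6. The cap was more even, with a median of 50.5 FPKM for the 9 base genes (37.1 for Psmd1 to 69.0 for Psmc1) and 38.4 FPKM for the 8 lid genes (22.1 for Psmd14 to 64.2 for Psmd8). Assembly factors were lower, at a median of 9.27 FPKM. Subunits that sit in the same particle in equal number thus differed up to 18.6-fold in FPKM within the alpha ring. Psma5, Psmb5, Psmb6 and Psmb7 together have 6 RefSeq pseudogenes named after them, so reads may be shared with copies and the levels of these 4 genes are uncertain.

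The 3 genes under the filter were those known for other tissues or as copies. Psmb11, the beta subunit of the thymus, was listed at 0 in all 12 libraries. Psma8, an alpha subunit of the testis, lay at 0.178 to 0.646 FPKM, and Psme2b, a relative of Psme2, at 0.112 to 0.584 FPKM.

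CR was compared with Con at each day in a single limma model of the 4 groups on log2(FPKM + 1), and p-values were adjusted by Benjamini-Hochberg over the 10593 genes. Genes are called at an adjusted p under 0.1, and log2 fold changes (CR over Con) are on the log2(FPKM + 1) scale, which understates the change of low genes. At day 25, 6 of the 47 proteasome genes were lower in CR mice and none was higher, a share of 12.8% against 14.9% of all genes called, 9.34% lower and 5.6% higher. At day 30, 10 were lower and 1 was higher, a share of 23.4% against 24.7% of all genes, of which 16.4% were lower and 8.33% higher. Over both days, the average of the 2 contrasts, 20 were lower and 2 were higher, a share of 46.8% against 39.6% of all genes called, 25.4% lower and 14.2% higher. With median-ratio scaling between libraries the split was 6 lower and 1 higher at day 25 and 7 lower and 2 higher at day 30. Leaving out 1 mouse moved the count to between 3 and 7 at day 25 (3 without Con8, Con9, CR7 or CR9) and to between 4 and 15 at day 30 (4 without CR10, 5 without Con11, 7 without Con10 or CR12). The shares of all genes called in these refits are not given here, so a shift may be shared by all genes. In the fit of all 12 mice, counting both directions together, the proteasome genes were called at shares near those of all genes at each day. By direction, the calls lay more on the lower side than those of all genes, which was not tested. They fell unevenly among the roles. All 6 calls at day 25 and 8 of the 11 at day 30 were genes of the cap, and none at either day was an alpha or a constitutive beta subunit.

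**Figure D1:**
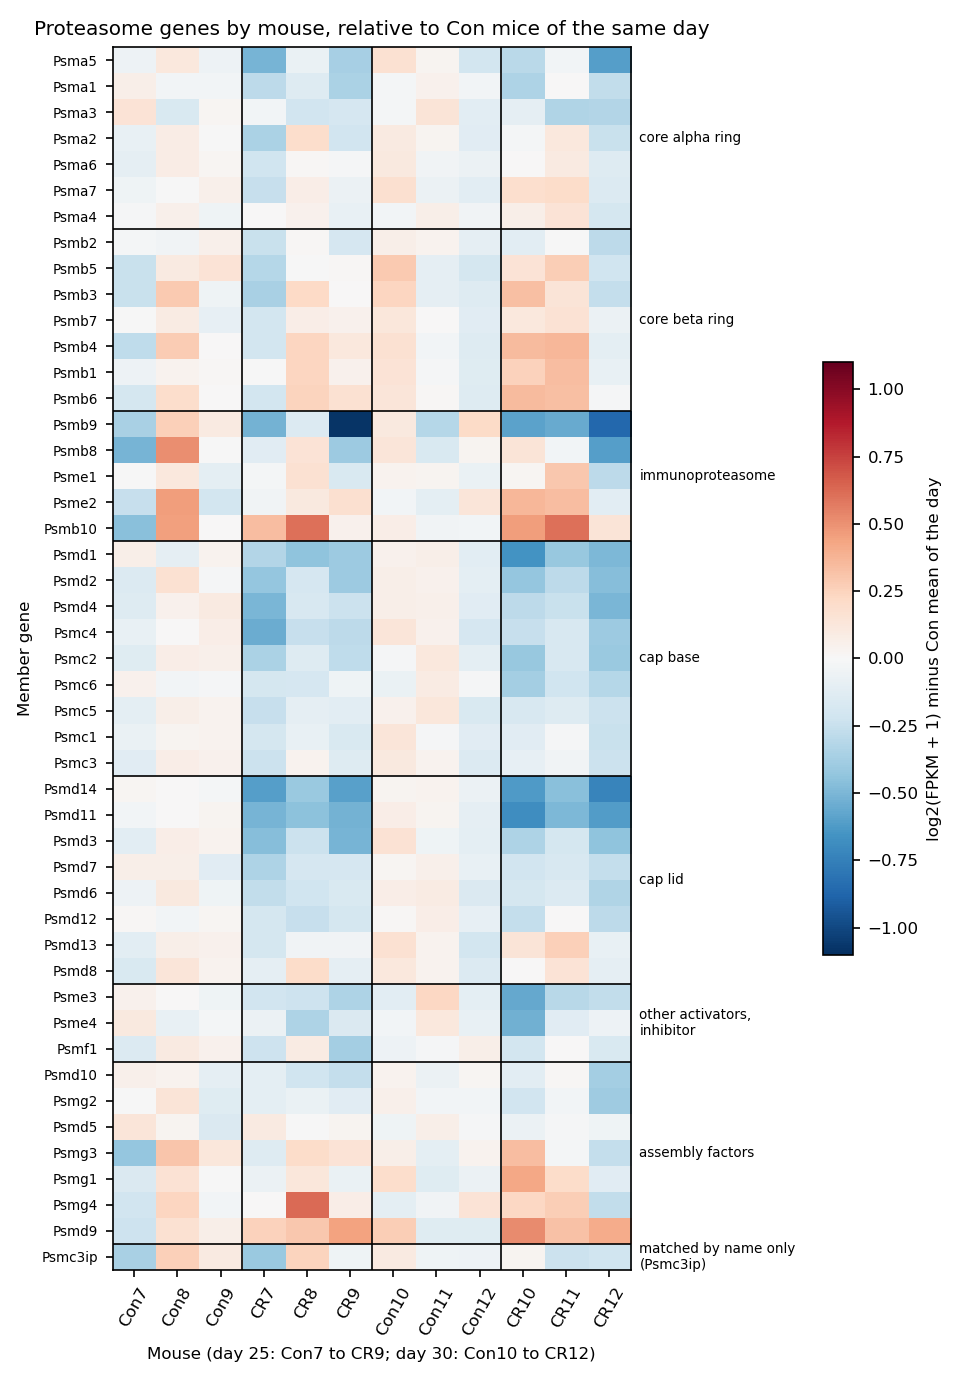
Log2(FPKM + 1) of each of the 47 proteasome genes past the filter (rows, grouped by role) in each mouse (columns), minus the mean of the 3 Con mice of the same day. The cap base and lid rows are mostly blue in all 6 CR mice, while the beta ring rows show blue and red in CR and Con mice alike.

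The median log2 fold change of the 47 genes was -0.13 at day 25 and -0.13 at day 30, beside -0.04 and -0.07 over all genes. Changes were small: over both days they ranged from -0.63 for Psmb9 to 0.37 for Psmd9, so none reached a 2-fold difference, which 1.48% (day 25), 2.21% (day 30) and 1.66% (both days) of all genes did while called. At an unadjusted p under 0.05, 15 genes passed at day 25 (31.9%, beside 24.9% of all genes), 15 at day 30 (31.9%, beside 31.7%) and 22 over both days (46.8%, beside 41.9%). Since the mice of the 2 days were different animals, the days can be set side by side. At day 25, all 3 CR mice lay below all 3 Con mice in 17 of the 47 genes and above them in 1. Of all 10593 genes, 1902 (18%) and 1085 (10.2%) did so. At day 30 the counts were 11 and 2 of the 47, beside 2578 (24.3%) and 1283 (12.1%) of all genes. The share below was thus larger than that of all genes at day 25 but slightly under it at day 30. The share above was smaller at both days. Of the 6 genes called at day 25, 5 were called in the same direction at day 30, which is 5 of the 11 called there. Those shares are 83.3% and 45.5%, beside 72.9% and 44.1% of all genes called at each day. In 10 genes (21.3%) all 3 CR mice lay below all 3 Con mice at both days, compared with 12.2% of all genes. These were Psmc2, Psmc6, Psmd1, Psmd2, Psmd4, Psmd3, Psmd7, Psmd11, Psmd14 and Psme3, and 9 of them belong to the cap. Psmd9 alone lay above at both days (5.8% of all genes).

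In the lid of the cap, 6 of the 8 genes were lower over both days, where 25.4% of all genes were. They were Psmd3, Psmd6, Psmd7, Psmd11, Psmd12 and Psmd14, and the median log2 fold change across the lid was -0.22. Psmd14 and Psmd11 fell most among them, and the 250 bases before each of their transcription starts are printed here because both genes moved together at both days. The sequences are RefSeq's for GRCm38.p6, the assembly that mm10 holds, written 5′ to 3′ on the coding strand, for chr2:61711444-61711693 (plus strand) and chr11:80428365-80428614 (plus strand). Capitals would mark either of the motifs described further on, and neither window holds one.
Psmd14: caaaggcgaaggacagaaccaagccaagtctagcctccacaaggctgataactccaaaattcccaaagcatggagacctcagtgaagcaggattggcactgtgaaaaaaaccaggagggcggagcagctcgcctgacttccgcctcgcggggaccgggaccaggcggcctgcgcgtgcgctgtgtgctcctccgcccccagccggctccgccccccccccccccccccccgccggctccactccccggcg
Psmd11: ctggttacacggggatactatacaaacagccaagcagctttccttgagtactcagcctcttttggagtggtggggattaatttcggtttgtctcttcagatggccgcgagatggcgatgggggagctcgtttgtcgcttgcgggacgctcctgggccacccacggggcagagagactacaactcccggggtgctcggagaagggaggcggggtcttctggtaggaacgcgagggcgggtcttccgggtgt

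Psmd14 (chr2:61711694-61800376, plus strand) encodes the metalloprotease that cuts ubiquitin chains from substrates as they enter. Its FPKM was 25.3, 24.9 and 24.6 in Con mice and 16.04, 18.6 and 16.2 in CR mice at day 25. At day 30 it was 28.8, 28.9 and 27.0 in Con mice and 17.9, 20.3 and 16.7 in CR mice. Every CR mouse lay below every Con mouse at both days, and the gap was larger than the spread within any group. The log2 fold change was -0.53 ± 0.095 (SE, adjusted p = 0.00562) at day 25 and -0.60 ± 0.095 (adjusted p = 0.00164) at day 30. It remained called at each day with any 1 mouse left out.

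Psmd11 (chr11:80428615-80472133, plus strand) encodes a scaffold subunit that joins the lid to the core. Its FPKM was 36.2, 37.1 and 37.8 in Con mice against 25.7, 26.8 and 25.5 in CR mice at day 25, and 40.5, 39.4 and 35.9 against 23.6, 27.0 and 24.8 at day 30. The groups did not overlap at either day. The log2 fold change was -0.49 ± 0.087 (adjusted p = 0.00532) at day 25 and -0.60 ± 0.087 (adjusted p = 0.00102) at day 30. Psmd3, another structural subunit of the lid, lay at 48.5 ± 3.37 FPKM (SD, n = 3) in Con and 36.4 ± 3.87 in CR mice at day 25, and at 44.9 ± 4.56 and 35.7 ± 3.22 at day 30. It was called at both days (log2 fold change -0.40, adjusted p = 0.0437, and -0.32, adjusted p = 0.0694), without overlap between Con and CR mice. Leaving out Con8, Con9, CR7 or CR9 ended its call at day 25, and leaving out Con10, Con11, CR10 or CR12 ended it at day 30, as did median-ratio scaling (adjusted p = 0.109) and a fit of the groups compared alone (adjusted p = 0.105).

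Not every lid gene moved. Psmd8 and Psmd13, both structural subunits, had log2 fold changes over both days of 0.01 ± 0.088 and 0.01 ± 0.085, with 95% intervals of -0.18 to 0.20 and -0.18 to 0.19. The 6 lid genes called ranged from -0.57 to -0.20.

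In the base, all 9 genes had negative log2 fold changes at each day, as did 6051 (day 25) and 6436 (day 30) of all 10593 genes. Over both days 7 base genes were called lower, where 25.4% of all genes were, with a median of -0.29 across the base. Psmd1, the large scaffold on which the base is built (chr1:86064619-86139295, plus strand), had 43.8, 39.0 and 43.1 FPKM in Con mice and 33.3, 30.5 and 31.6 in CR mice at day 25. At day 30 the values were 45.6, 46.2 and 40.7 in Con and 27.5, 32.9 and 31.0 in CR mice. Con and CR mice were fully separated at both days, and the log2 fold change was -0.39 ± 0.098 (adjusted p = 0.0288) and -0.52 ± 0.098 (adjusted p = 0.00421). Psmd2, which docks ubiquitin-like domains of shuttle proteins, fell from 44.6 ± 5.16 to 35.0 ± 3.36 FPKM at day 25 (log2 fold change -0.34, adjusted p = 0.0790) and from 44.9 ± 3.02 to 33.9 ± 2.39 at day 30 (-0.40, adjusted p = 0.0304). Its groups were apart at both days. Its call at day 25 was lost without Con8, Con9, CR7 or CR9, each left out alone, and in a fit of the day 25 groups alone (adjusted p = 0.158).

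Psmd4, a ubiquitin receptor, had 59.99, 68.6 and 71.0 FPKM in Con against 46.5, 58.7 and 56.2 in CR mice at day 25, and 67.0, 66.7 and 58.5 against 52.1, 53.8 and 44.7 at day 30. CR mice were below Con mice throughout, and the gene was called at day 30 (log2 fold change -0.35, adjusted p = 0.0663) but not at day 25 (-0.30, adjusted p = 0.135). The 6 ATPases, Psmc1 to Psmc6, form the ring that unfolds substrates. Psmc4 had 60.5, 64.3 and 67.6 FPKM in Con and 43.7, 53.5 and 52.4 in CR mice at day 25 (log2 fold change -0.36, adjusted p = 0.0725). At day 30 Con mice had 65.1, 61.1 and 52.0 FPKM and CR mice 49.5, 52.2 and 44.7, so that 1 Con mouse fell among the CR mice (-0.27, adjusted p = 0.124). Its call at day 25 was lost when any mouse of that day except CR8 was left out, and in a fit of the day 25 groups alone (adjusted p = 0.116). Psmc2 and Psmc6 were called at day 30 and over both days but not at day 25. Psmc5 was called only over both days, while Psmc1 and Psmc3 were not called in any of the 3 comparisons. No day-by-CR difference passed the test for any of these genes.

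**Figure D2:**
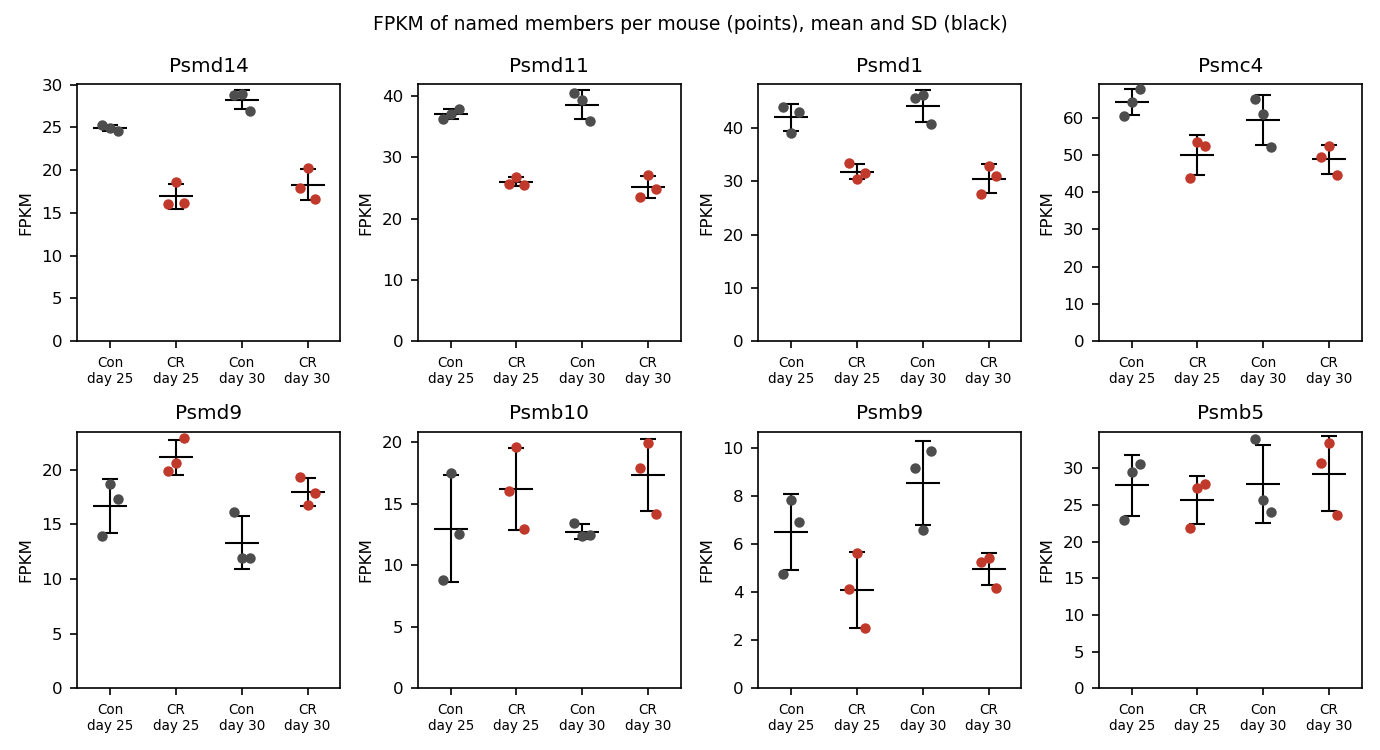
FPKM of 8 proteasome genes in each mouse (gray points, Con; red points, CR), with the mean (wide bar) and SD (whiskers) of each group of 3. Psmd14, Psmd11 and Psmd1 lie lower in all CR mice of both days, Psmd9 lies higher, and Psmb5 overlaps.

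In the core, of the 7 alpha subunits tested none was called at either day, where 14.9% (day 25) and 24.7% (day 30) of all genes were. Over both days 3 were lower (Psma1, Psma3 and Psma5), where 25.4% of all genes were. The ring's median log2 fold change over both days was -0.08. Psma5, which encodes alpha 5, had 11.3, 12.9 and 11.3 in Con against 7.98, 11.1 and 8.91 in CR mice at day 25, and 13.6, 12.2 and 10.3 against 9.60, 11.8 and 7.57 at day 30. The groups were apart at day 25 and overlapped at day 30, and the gene was called only over both days (-0.31 ± 0.11, adjusted p = 0.0470). That call was lost without CR7 or without Con10 (adjusted p = 0.103 for either), and the call of Psma3 was lost in 12 of 21 alternative settings. Psma4 and Psma7 had log2 fold changes over both days within 0.01 of 0.

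None of the 7 beta subunits tested was called by limma at either day or over both, where 14.9%, 24.7% and 39.6% of all genes were. None had an unadjusted p under 0.05 in limma. Their median log2 fold change was -0.03 at day 25, 0.07 at day 30 and 0.02 over both days. The sign of the ring's median depended on the setting, with 0.020 at day 25 under median-ratio scaling. Over other settings and with 1 mouse left out, at most 1 beta subunit was called lower and at most 1 higher over both days. The proteolytic subunits were Psmb5 (chymotrypsin-like), Psmb6 (caspase-like) and Psmb7 (trypsin-like). Psmb5 had 23.0, 29.5 and 30.6 FPKM in Con and 21.8, 27.3 and 27.8 in CR mice at day 25, and 33.9, 25.7 and 24.0 against 30.7, 33.5 and 23.6 at day 30. Psmb6 had means of 86.1 ± 11.6 (Con) and 90.6 ± 14.5 (CR) at day 25 and of 84.4 ± 8.05 and 98.8 ± 13.5 at day 30, and Psmb7 had means of 87.3 ± 5.52 and 85.8 ± 8.81, then 89.9 ± 7.97 and 94.3 ± 7.67. Con and CR mice overlapped for all 3 genes at both days. The 95% intervals of their log2 fold changes over both days were -0.27 to 0.24 for Psmb5, -0.09 to 0.38 for Psmb6 and -0.15 to 0.19 for Psmb7.

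Adding FPKM over genes gives a single value per mouse for the cap and for the core. Scaling a library by a single factor does not change their ratio, but other properties of the library can. Summed over 17 cap genes, FPKM was 842 ± 38.5 in Con and 714 ± 42.7 in CR mice at day 25, and 832 ± 62.5 and 698 ± 50.9 at day 30, without overlap. Summed over 14 core genes it was 880 ± 61.9 and 860 ± 96.6 at day 25 and 868 ± 73.3 and 909 ± 115 at day 30, with overlap at both days. The ratio of cap to core was 0.975, 0.924 and 0.974 in Con mice and 0.883, 0.794 and 0.822 in CR mice at day 25. At day 30 it was 0.925, 1.00 and 0.951 in Con mice and 0.722, 0.757 and 0.838 in CR mice. No CR mouse reached a Con mouse at either day. The share of reads on exons differed too: 78.1% to 83.6% (Con) and 80.9% to 84.3% (CR) at day 25, then 78.2% to 80.6% and 80.5% to 82.3%. The mouse with the highest share had the lowest ratio of its group in Con mice of both days (Con8, Con10) and in CR mice of day 25 (CR8). In CR mice of day 30 it did not (CR11). The part of this share in the ratio was not tested. The mean log2 difference was -0.20 at day 25 and -0.31 at day 30, against an SD between mice of 0.077, and with any 1 mouse left out it stayed between -0.24 and -0.17 and between -0.38 and -0.27. Cap subunits outside the Psm names are not in the sums. Among them, Shfm1 of the lid (68.7 to 117 FPKM) was called higher over both days, and Adrm1 of the base (4.17 to 7.78 FPKM) lower. These sums are descriptions without a test, because the roles were compared with results in view.

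**Figure D3:**
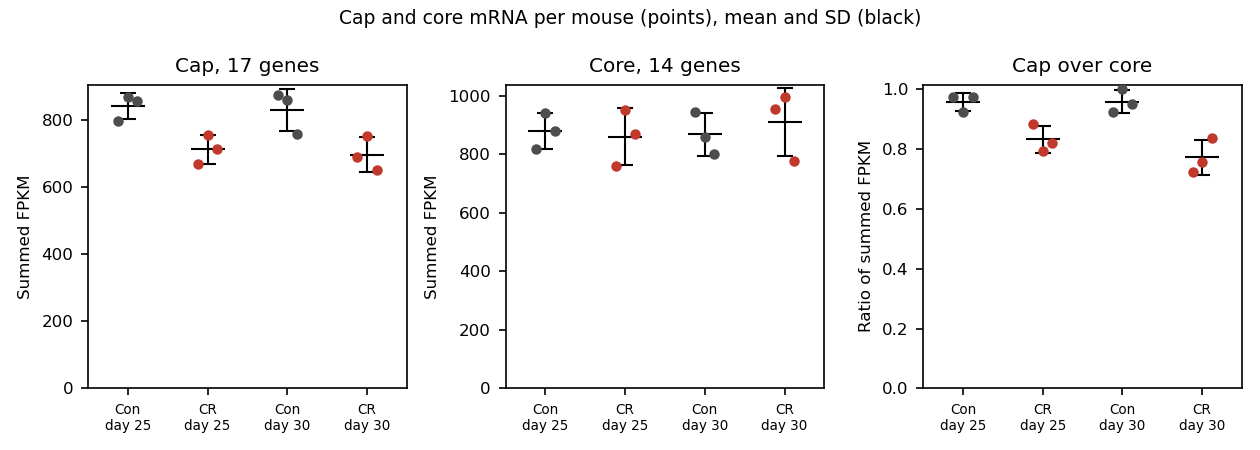
Summed FPKM of the 17 cap genes, summed FPKM of the 14 core genes, and their ratio in each mouse (gray points, Con; red points, CR), with mean (wide bar) and SD (whiskers) per group of 3. The ratio lies between 0.924 and 1.00 in Con mice and between 0.722 and 0.883 in CR mice.

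Transcript length moved with this contrast. Exons of beta subunits are short (median 940 bases, 723 to 1028), and those of base and lid genes longer (medians 1548 and 1569.5 bases). Across the 47 genes, which are not independent replicates, exon length and log2 fold change over both days had a Spearman correlation of -0.49. Among all genes at 20 to 150 FPKM the median log2 fold change over both days was 0.11 for exon lengths of 500 to 1100 bases (336 genes), 0.05 for 1100 to 1800 bases (425 genes) and -0.03 for 1800 to 3500 bases (713 genes). With the length trend of each library removed, 13 of the 17 cap genes were still called lower over both days, with a median of -0.21 in place of -0.23, and 3 of the 14 core genes. The core median over both days ran from -0.061 to 0.055 over 9 other settings, this one among them. The ratio of cap to core was not recomputed without the length trend, so the part of length in that ratio was not tested.

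**Figure D4:**
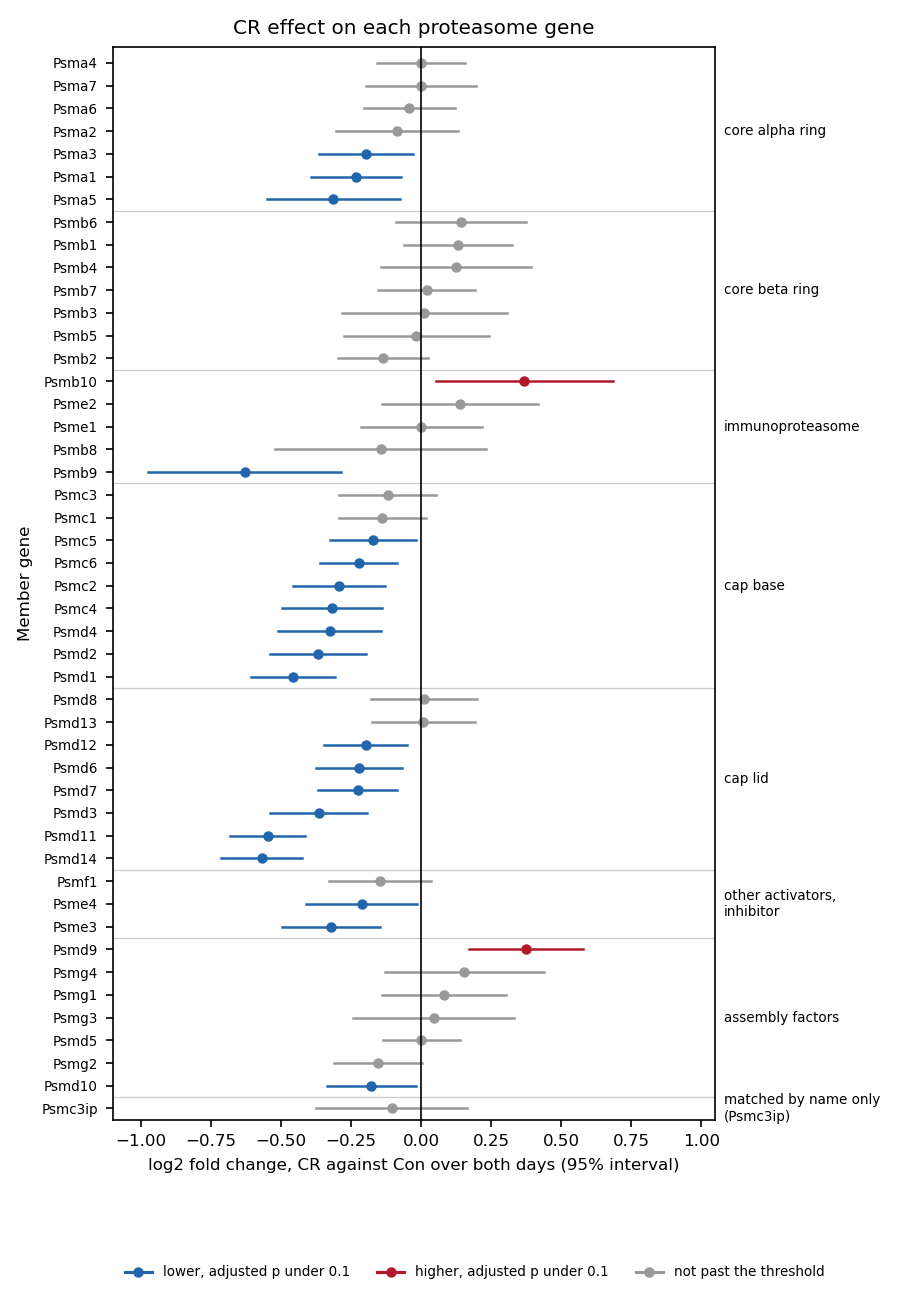
Log2 fold change (CR over Con, both days) of each proteasome gene past the filter with its 95% interval, grouped by role. Blue genes were called lower and red genes higher (adjusted p under 0.1). Base and lid hold 13 of the 20 blue genes, and all 7 beta ring intervals cross 0.

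The immunoproteasome genes did not move as a group. Of the 5 genes, Psmb9 was lower at day 30 and over both days, Psmb10 was higher over both days, and Psmb8, Psme1 and Psme2 were not called. Psmb9 takes the place of Psmb6 in the inner ring and lies head to head with Tap1, the peptide transporter that feeds MHC class I molecules, on chromosome 17. The 225 bases between the starts of both genes, chr17:34187331-34187555, are shown on the minus strand, the coding strand of Psmb9, because both genes fell under CR. Capitals would mark the motifs named further on, and this stretch holds neither.
Psmb9 to Tap1: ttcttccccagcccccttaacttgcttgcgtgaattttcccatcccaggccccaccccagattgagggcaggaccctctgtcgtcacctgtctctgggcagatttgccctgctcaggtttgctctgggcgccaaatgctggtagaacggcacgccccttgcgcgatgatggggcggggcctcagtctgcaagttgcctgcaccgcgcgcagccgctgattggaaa

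Psmb9 (chr17:34182099-34187330, minus strand) had 4.76, 7.84 and 6.91 FPKM in Con and 4.14, 5.65 and 2.49 in CR mice at day 25. At day 30 it had 9.18, 6.58 and 9.89 in Con and 5.26, 5.41 and 4.19 in CR mice. The groups overlapped at day 25 and were apart at day 30. The log2 fold change was -0.59 ± 0.22 (adjusted p = 0.127) at day 25, -0.67 ± 0.22 (adjusted p = 0.0606) at day 30 and -0.63 ± 0.16 (adjusted p = 0.0113) over both days. Only 40 to 178 reads per library lay behind these values. The call at day 30 was lost without Con10, Con12, CR10 or CR12, and with no filter on low values (adjusted p = 0.124), while that over both days held with any 1 mouse left out.

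Psmb10 (chr8:105935728-105938392, minus strand) takes the place of Psmb7. Its FPKM was 8.84, 17.5 and 12.6 in Con and 16.1, 19.6 and 13.0 in CR mice at day 25, with overlap, and 13.4, 12.4 and 12.5 against 17.9, 19.95 and 14.2 at day 30, without. It was called higher only over both days (0.37 ± 0.15, adjusted p = 0.0735), and not when Con7, Con9, Con11, Con12, CR7, CR8, CR10 or CR11 was left out or with no filter on low values (adjusted p from 0.110 to 0.155). Psmb8, which takes the place of Psmb5, had 7.38, 15.9 and 10.9 FPKM in Con and 9.90, 12.2 and 8.02 in CR mice at day 25, and 14.5, 11.6 and 13.4 against 14.6, 12.8 and 8.25 at day 30. Its spread within groups exceeded the difference between them, and its 95% interval over both days was -0.52 to 0.23. Psme1 and Psme2, the subunits of the interferon-induced activator, had log2 fold changes over both days of 0.00 ± 0.10 and 0.14 ± 0.13, and their Con and CR mice overlapped at both days.

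Set against the constitutive subunit it replaces, Psmb9 was at 0.075 ± 0.0095 of Psmb6 in Con and 0.046 ± 0.017 in CR mice at day 25, and at 0.10 ± 0.026 and 0.050 ± 0.0010 at day 30. These ratios did not overlap at either day. Psmb10 was at 0.148 ± 0.044 of Psmb7 in Con and 0.190 ± 0.040 in CR mice at day 25, with overlap, and at 0.142 ± 0.0086 and 0.183 ± 0.017 at day 30, without. Psmb8 overlapped at both days relative to Psmb5, at 0.406 ± 0.12 and 0.396 ± 0.093, then 0.478 ± 0.069 and 0.402 ± 0.065. Every inducible subunit had a lower FPKM than the constitutive one it replaces in all 12 mice, and of these 3 ratios only that of Psmb9 separated Con from CR mice at both days.

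Some genes known to induce the immunoproteasome were lower over both days, as Psmb9 was. Psmb10 was higher, and Psmb8, Psme1 and Psme2 were not called. A link between these genes was not tested. Over both days, Irf1, a transcription factor of the interferon response, had a log2 fold change of -0.59 ± 0.12 (adjusted p = 0.00379), and Nlrc5, the activator of MHC class I genes, -0.53 ± 0.11 (adjusted p = 0.00396). Among 11 genes of MHC class I antigen processing, 5 were lower and none was higher over both days, where 25.4% and 14.2% of all genes were. Tap1 had 4.11, 5.59 and 4.59 FPKM in Con and 2.99, 3.37 and 2.39 in CR mice at day 25, and 8.21, 5.40 and 7.82 against 3.40, 3.22 and 2.32 at day 30. Its groups were apart at both days, with log2 fold changes of -0.56 (adjusted p = 0.0506) and -1.03 (adjusted p = 0.00165). B2m, the light chain of MHC class I, and the chaperones Calr and Pdia3 were also lower over both days (-0.35, -0.43 and -0.29), while the heavy chains H2-K1 and H2-D1 were not called (-0.03 ± 0.090 and 0.04 ± 0.10).

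**Figure D5:**
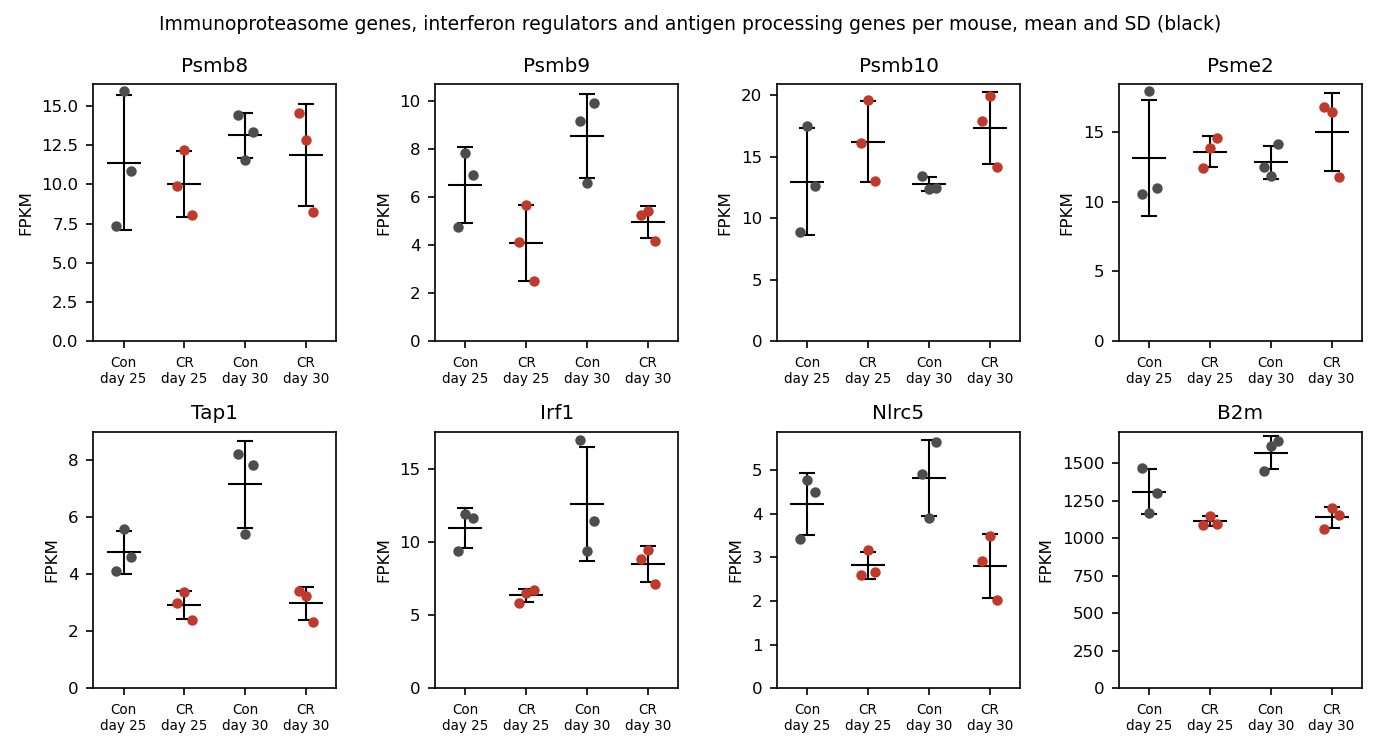
FPKM of 4 immunoproteasome genes, Tap1, Irf1, Nlrc5 and B2m in each mouse (gray points, Con; red points, CR), with mean (wide bar) and SD (whiskers) per group of 3. Psmb9, Tap1, Irf1 and Nlrc5 are lower on average in CR mice, and Psmb10 is higher.

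Markers of other cells moved as well. Of 8 Kupffer cell and macrophage markers, 5 were lower and 1 was higher over both days, where 25.4% and 14.2% of all genes were. Their summed FPKM ranged from 40.5 to 69.8 in Con and from 26.3 to 34.6 in CR mice at day 25, and from 37.0 to 54.1 and 35.9 to 48.8 at day 30. The 8 leukocyte markers summed to 1.51 to 1.64 FPKM in Con and 0.841 to 1.34 in CR mice at day 25, without overlap, and to 2.04 to 2.60 and 1.03 to 2.05 at day 30, with the B cell marker Ms4a1 listed at 0 in 3 CR mice. Among endothelial markers 2 of 5 were higher and none was lower, and among stellate cell markers 3 of 4 tested were higher and none was lower. Of 6 hepatocyte markers, 3 were higher and 2 were lower. The part of cell makeup in the values of Psmb9 was not tested.

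Among other activators and the inhibitor, Psme3, the nuclear activator of the core, was lower at day 30 and over both days. It had 23.3, 22.6 and 21.9 FPKM in Con and 19.4, 19.2 and 17.6 in CR mice at day 25, and 20.6, 26.5 and 20.7 against 14.9, 18.0 and 18.4 at day 30. Con and CR mice were apart at both days (log2 fold change -0.26, adjusted p = 0.178, and -0.38, adjusted p = 0.0391), and the day 30 call was lost without Con11 or CR10. Psme4, an activator linked to histone degradation, was called only over both days (-0.21 ± 0.091, adjusted p = 0.0966), and not in 14 of 21 alternative settings. Psmf1, an inhibitor of the core, was not called (-0.15 ± 0.084).

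Of 7 assembly factors, 1 was higher and 1 lower over both days, where 14.2% and 25.4% of all genes were. These counts are near the share of all genes for higher and below it for lower. Psmd9, a chaperone of the base (chr5:123228190-123250125, plus strand), was the one that rose. It had 13.99, 18.7 and 17.3 FPKM in Con and 19.9, 20.6 and 22.9 in CR mice at day 25, and 16.1, 11.9 and 11.9 against 19.4, 16.7 and 17.8 at day 30. Every CR mouse was above every Con mouse of its day, with a log2 fold change of 0.33 ± 0.13 (adjusted p = 0.144) at day 25 and 0.42 ± 0.13 (adjusted p = 0.0503) at day 30. The call at day 30 was lost without Con11, Con12 or CR10, and the call over both days (0.37 ± 0.094, adjusted p = 0.0110) held in all 21 alternative settings. Psmd10, another chaperone of the base, was lower over both days (-0.18 ± 0.073, adjusted p = 0.0840), but not in 13 of the 21 settings. Psmd5, a further base chaperone, stood at 0.00 ± 0.063, and the chaperones of the core, Psmg1 to Psmg4, were not called.

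The study sampled both days to set gene expression before and after a slowdown of hepatic protein synthesis side by side. No proteasome gene was called for a CR effect that differed between day 30 and day 25, by limma or by limma-voom on recovered reads. Limma called 0 of 47, beside 0.00944% of all genes, and 0 passed an unadjusted p under 0.05, beside 3.46% of all genes. The day 30 minus day 25 difference in CR effect ranged from -0.16 to 0.20 on the log2 scale. Within Con mice 0 proteasome genes were called between days (0% of all genes), and 1 passed an unadjusted p under 0.05, beside 7.22% of all genes. Within CR mice 0 were called (0.321% of all genes), and none passed an unadjusted p under 0.05, beside 8.66% of all genes. Both tools gave 0 for these comparisons too.

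Genes that work with the proteasome outside the Psm names were mixed. Of 15 partners, 6 were lower and 2 higher over both days, where 25.4% and 14.2% of all genes were. Pomp, the maturation factor of the core, had a log2 fold change of -0.01 ± 0.085, while Adrm1, the ubiquitin receptor of the base, fell by 0.40 (adjusted p = 0.00759) and Usp14, a deubiquitinase on the cap, by 0.40 (adjusted p = 0.00609). The shuttle factors Ubqln2 (-0.61, adjusted p = 0.000331) and Rad23b (-0.46, adjusted p = 0.00412) were lower. Shfm1, the older symbol of the smallest lid subunit, was higher (0.26, adjusted p = 0.0779).

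Upstream, 6 of 8 genes of the VCP segregase, which extracts ubiquitylated proteins, were lower and none was higher over both days. Of all genes, 25.4% were lower and 14.2% higher. Ubxn1, a cofactor of VCP, had 107, 111 and 104 FPKM in Con and 66.5, 77.9 and 68.4 in CR mice at day 25, and 99.8, 99.3 and 92.7 against 60.4, 62.9 and 57.4 at day 30. Its groups were far apart at both days (log2 fold change over both days -0.64, adjusted p = 4.48e-05). Ubb, a polyubiquitin gene, went the other way and rose by 0.37 ± 0.10 (adjusted p = 0.0181) over both days. Nfe2l1, the factor that induces proteasome genes when the proteasome is inhibited, was not called (0.04 ± 0.069), while Ddi2, the protease that activates it, was lower (-0.29, adjusted p = 0.0123).

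Promoter sequences were searched on both strands for TGACNNNGC, the core of the antioxidant response element that Nfe2l1 binds, and for a pair of GAAA runs separated by any 2 bases, a core of interferon response elements, in the 250 bases before the start. Of the 50 genes, 42 matched the RefSeq table. The former was found in 5 of them (11.9%: Psmb5, Psmb6, Psmc6, Psmd9 and Psmd12), beside 11.5% of all genes, and the latter in 3 (7.14%: Psmb3, Psmd4 and Psmd9), beside 3.46% of all genes. The windows of Psmb6, a subunit that was not called, and of Psmd9, a gene called higher, show the matches in capitals. They are chr11:70525107-70525356 and chr5:123227940-123228189, both on the plus strand.
Psmb6: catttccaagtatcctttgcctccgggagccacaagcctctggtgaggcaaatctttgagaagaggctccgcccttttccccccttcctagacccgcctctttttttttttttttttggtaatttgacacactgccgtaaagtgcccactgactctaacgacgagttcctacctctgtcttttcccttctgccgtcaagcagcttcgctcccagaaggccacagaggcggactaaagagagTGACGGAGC
Psmd9: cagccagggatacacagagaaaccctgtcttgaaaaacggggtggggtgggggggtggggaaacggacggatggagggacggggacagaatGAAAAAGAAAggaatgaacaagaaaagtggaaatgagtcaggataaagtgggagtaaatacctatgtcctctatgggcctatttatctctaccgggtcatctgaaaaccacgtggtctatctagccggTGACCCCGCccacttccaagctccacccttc

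In Psmb6 the antioxidant core ends at the last base before the start, and in Psmd9 it begins 31 bases before the start, with the interferon core beginning 159 bases before it. Of the 5 genes with the antioxidant core, over both days Psmd9 was higher, Psmc6 and Psmd12 were lower and Psmb5 and Psmb6 were not called. A match says only that these letters are present.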

How the data were processed

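Liver RNA was sequenced from 12 mice, 3 in each of 4 groups, as 100 base paired-end reads, and each library is a separate mouse. The authors called bases with CASAVA 1.8.2, aligned reads to mm10 with BWA and deposited FPKM per gene from HOMER, which counts reads on exons of a RefSeq transcript, with 1 transcript kept per gene. No scaling between libraries beyond depth was found in the deposited FPKM, and whether counting used strand is not given in the sources used here. Con day 30 columns carry numbers that the labels do not, so they were placed in their group only.

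Log2(FPKM + 1) of the 10593 genes with at least 1 FPKM in at least 3 libraries was fitted with limma 3.58.1 (R 4.3.3), with 4 groups in 1 model and a trended prior, and Benjamini-Hochberg adjustment over all of them. Called means an adjusted p under 0.1. Reads were recovered from FPKM steps (15748726 to 23345545 per library, and 100% of 1500 low values per library whole) and tested with limma-voom as an alternative. Intervals are limma's 95% intervals. The fitting code was tested on simulated data. Tables were built with pandas 2.3.3 and numpy 2.4.6 under Python 3.11.15, and plots with matplotlib 3.10.9.

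The members and the gene lists were chosen with earlier results of these data known. Genes given with full values were the 12 members with the largest change over both days among those called whose Con and CR mice did not overlap on at least 1 day, the 5 immunoproteasome genes, the 3 proteolytic beta subunits and up to 4 genes per partner list. Other members are named only to say which were counted or why a count holds, and were picked after their values were seen, as were Psmd8, Psmd13, Psma4, H2-K1, H2-D1, Pomp and Nfe2l1. Roles, partners and markers follow textbook knowledge. Some genes of the partner and marker lists are not reported here. Day 25 mice that share a number had correlated deviations from the means of their groups (0.106 to 0.368 across genes), so a fit with the number as a block was run. It called 8 members at day 25 in place of 6. Alternatives changed pseudocount, filter, scaling, threshold, test and the mice included.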

Additional observations from a re-analysis of the deposited data

How the results depend on the processing

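The counts of members called were recomputed with 1 choice changed at a time, and are given without the shares of all genes under each choice. No member passed a 2-fold minimum, which gave 0 in place of 6 at day 25, 0 in place of 11 at day 30 and 0 in place of 22 over both days. At day 25 the count was 10 as TPM, 11 after quantile normalization and 10 with the length trend removed (chosen after seeing the data), and at day 30 it was 6 at an adjusted p under 0.05. Leaving out 1 mouse gave 3 to 7 at day 25 (3 without Con8, Con9, CR7 or CR9), 4 to 15 at day 30 (7 without Con10, 5 without Con11, 4 without CR10, 15 without CR11, 7 without CR12) and 17 to 21 over both days. The fit with a replicate block gave 8 at day 25. At day 30, pairing by column number (chosen after seeing the data; correlations of 0.0456 to 0.181) gave 11. Limma-voom gave 6, 11 and 21. At the same threshold, all 22 members called over both days kept their sign in 21 alternatives (9 settings and 12 mice left out), and 15 were called in all of them. There the cap held no member called higher, and 11 to 15 called lower over both days in the 9 settings. Comparisons between days stayed at 0 under every setting run.

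Among single members and ratios, signs turned only for ones that were not called. Medians of the core also turned: over the other settings they ran from -0.061 to 0.055 for the core and from -0.0099 to 0.084 for the beta ring over both days, and from -0.087 to 0.031 for the alpha ring at day 30. With 1 mouse left out, log2 values at day 25 ran from -0.18 to 0.20 for the ratio of Psmb8 to Psmb5, -0.38 to 0.13 for Psmb8, -0.098 to 0.073 for Psme1, -0.048 to 0.31 for Psme2, -0.23 to 0.0059 for Psmb5, -0.029 to 0.21 for Psmb6 and -0.079 to 0.058 for Psmb7. At day 30 they ran from -0.32 to 0.059 for Psmb8, -0.13 to 0.16 for Psme1 and -0.033 to 0.21 for Psmb5. At day 25, median-ratio scaling gave 0.040 for Psme1 and 0.020 for Psmb7, and quantile normalization -0.0021 for Psmb6. At day 30, Psme1 was -0.023 as TPM, -0.014 after quantile normalization and -0.023 with the length trend removed, and Psmb7 was -0.0025 after quantile normalization. The cause was not tested. With 3 mice a group and changes under 2-fold, the number of mice limits what can be called, and for Psmb9 so do its 40 to 178 reads per library.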
